A study of Mus musculus with 15 samples.

Results

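The *Ifitm* family was followed through B cell differentiation with and without inhibition of EZH2. Its members here are the 4 genes *Ifitm1*, *Ifitm2*, *Ifitm3* and *Ifitm6*, taken by symbol from the 21669 genes with a symbol in the table, and they were read in all 5 groups. *Ifitm1* was selected on its own RPKM values with GSK343 against DMSO in an earlier look at these data, so its values are given as a description with no test in any comparison, while *Ifitm2*, *Ifitm3* and *Ifitm6* were brought in by family name. The question was whether the higher level of *Ifitm1* with the inhibitor was shared by its neighbours.

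RNA-seq libraries came from splenic B cells of female wild-type C57BL/6J mice, 6 to 9 weeks old. Naive B cells (nB) were CD43- cells that had not been cultured. The other groups were cultured for 3 days with LPS, Il2 and Il5 and either DMSO, the vehicle, or the EZH2 inhibitor GSK343 at 2 μM, and were then sorted by flow cytometry. Cells that were B220+GL7+CD138- are called activated B cells (actB), and CD138+ cells are called plasmablasts (Pb). The labels of Pb with GSK343 name Il6 where those of the other cultured groups name Il5, so if these labels hold, the drug and the cytokine cannot be told apart in Pb. Each group has 3 libraries of 19421830 to 26307413 counted reads. The first and second nB libraries differed by less than sampling noise and were averaged and counted as 1, so n = 2 for nB and n = 3 elsewhere.

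The proteins of this family are small and lie in the plasma membrane and in the membranes of endosomes, where they hinder the fusion of enveloped viruses with the cell. Ifitm1 is mostly found at the cell surface, and Ifitm3 is mostly found in late endosomes. Several of the genes are induced by interferons: type I interferon acts on the interferon-stimulated response element (ISRE), and interferon gamma acts on the gamma-activated sequence (GAS). EZH2 is the catalytic subunit of Polycomb repressive complex 2, which places a repressive methyl mark on histone H3.

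The 4 members lie together on mouse chromosome 7 (mm9, GENCODE annotation), in the order *Ifitm2*, *Ifitm1*, *Ifitm3* and *Ifitm6*. *Ifitm2* covers chr7:148140736-148141882 on the minus strand, *Ifitm1* chr7:148153120-148155724 on the plus strand, *Ifitm3* chr7:148195485-148196669 on the minus strand and *Ifitm6* chr7:148201711-148202791 on the minus strand. The gaps between them are 11237 bases from *Ifitm2* to *Ifitm1*, 39760 bases from *Ifitm1* to *Ifitm3* and 5041 bases from *Ifitm3* to *Ifitm6*. No other annotated gene overlaps a member. *Ifitm1* is thus the member that reads in the opposite direction to the other three.

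The sequences before the start sites of the 3 members detected in cultured cells are shown, since the members differ in the interferon elements near their starts. They are RefSeq promoter windows (GRCm38.p6), each found once in mm9, printed 5′ to 3′ in the direction of the gene from 250 bases before the RefSeq start site up to the first base annotated as exon. Capitals mark a match to the ISRE core (GAAANNGAAA on either strand) or to GAS (TTCNNNGAA, which reads the same on both strands), where N is any base.
Ifitm1, chr7:148153725-148153926, plus strand: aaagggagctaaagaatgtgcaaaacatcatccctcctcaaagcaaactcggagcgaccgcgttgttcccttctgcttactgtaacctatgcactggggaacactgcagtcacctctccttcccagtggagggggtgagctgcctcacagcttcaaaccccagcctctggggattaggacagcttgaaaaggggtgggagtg
Ifitm2, chr7:148141883-148142110, minus strand: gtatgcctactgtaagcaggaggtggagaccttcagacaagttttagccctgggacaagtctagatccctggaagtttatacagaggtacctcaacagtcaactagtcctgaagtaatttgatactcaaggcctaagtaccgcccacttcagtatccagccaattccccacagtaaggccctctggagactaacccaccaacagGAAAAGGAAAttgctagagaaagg
Ifitm3, chr7:148196670-148196893, minus strand: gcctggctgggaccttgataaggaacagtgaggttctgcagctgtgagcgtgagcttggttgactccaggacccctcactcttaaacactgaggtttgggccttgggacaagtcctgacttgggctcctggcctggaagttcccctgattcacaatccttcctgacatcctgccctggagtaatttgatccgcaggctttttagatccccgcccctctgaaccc
Ifitm3, bases 3 to 29 counted from the RefSeq start as 1, chr7:148196615-148196641, minus strand: GAAAAGGAAAcTTCTGAGAAACCGAAA

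Matches were searched in the whole 300-base windows, from 250 bases before the start to 50 bases after it. *Ifitm2* held 1 ISRE core, at position -46 from the start. *Ifitm3* held 2 ISRE cores, with a GAS match between them that shares 3 bases with the second. *Ifitm6* held 1 GAS match, at position -10, and no ISRE core. *Ifitm1* held neither motif in this window, which says only that these letters are not in these 300 bases. Of 32851 such windows of mouse genes, 3.44% held the ISRE core and 8.30% held GAS. The window of *Ifitm1* lies inside the annotated gene, since its RefSeq start is 855 bases past the first base of the annotated gene body. Of its bases 202 are intronic and 98 exonic, and 2 of the 3 annotated transcripts begin within 50 bases of the RefSeq start. The windows hold 5 CpG dinucleotides for *Ifitm1*, 4 for *Ifitm2*, 5 for *Ifitm3* and 2 for *Ifitm6*, against a median of 7 over all windows.

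Related sequence elsewhere in the genome limits how well 50 bp reads can be assigned. Of the 50-base words in the exons of each member, 82.2% occur once in the mm9 genome for *Ifitm1*, 71.1% for *Ifitm2*, 89.8% for *Ifitm3* and 100% for *Ifitm6*. Words shared with another member make up 1.60% of *Ifitm1*, 3.62% of *Ifitm2* and 6.03% of *Ifitm3*. The other repeated words of *Ifitm1* lie in *Gm7676* on chromosome 8, and those of *Ifitm2* lie most often in *Gm11951*, *Gm10332* and *Gm5331*, predicted genes or pseudogenes that are not in the table. How reads with several matches were counted is not stated, so the levels of *Ifitm1* and *Ifitm2* are uncertain to that extent.

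Levels are RPKM, the deposited reads per 1000000 counted reads (RPM) divided by the gene length in kilobases, so that members can be compared with each other. Folds are on the scale of log2(RPKM + 0.25), which understates the change of low genes. Tests are from limma across the 11299 genes that reached 1 RPKM in 3 or more columns, with Benjamini-Hochberg adjustment, and a gene is called at an adjusted p under 0.05. The filter used the 15 deposited columns, before the first and second nB libraries were averaged. All 4 members passed it, *Ifitm6* only through the 3 nB columns, where those libraries count apart.

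The 4 cultured libraries with replicate number 2 stood apart at these genes. Each was above its group mean for *Ifitm3*, by 0.78 to 1.11 on the log2 scale, and for *Ifitm1*, by 0.46 to 0.68, while the libraries with numbers 1 and 3 were below it for both genes. The median deviation of 50 other interferon-stimulated effector genes was also positive in all 4 libraries with number 2, at 0.28 to 0.49, and negative in the other cultured libraries, at -0.29 to -0.11. *Ifitm2* showed no such split, with deviations of -0.16 to 0.63 in the libraries with number 2 and -0.42 to 0.31 in the others. Whether these 2 patterns have a common source was not tested. Libraries with the same number were therefore also set against each other.

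**Figure D1:**
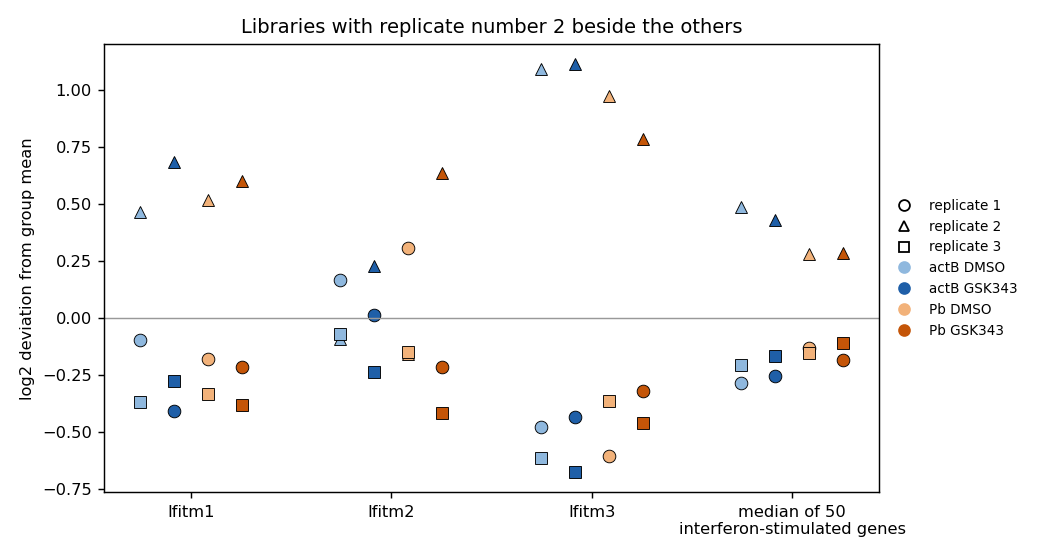
Deviation of each cultured library from the mean of its group on the log2 scale for *Ifitm1*, *Ifitm2*, *Ifitm3* and for the median of 50 interferon-stimulated effector genes, with a symbol for each replicate number and a colour for each group. The triangles, replicate number 2, lie at 0.78 to 1.11 for *Ifitm3* and at 0.46 to 0.68 for *Ifitm1*, above all other libraries.

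*Ifitm1* (Entrez 68713) was low in cultured cells without the drug and higher with it. In actB with DMSO its level was 1.06, 1.68 and 0.833 RPKM in replicates 1 to 3, and in actB with GSK343 it was 4.72, 10.3 and 5.20 RPKM. The groups did not overlap, as was the case for every GSK343 library above every DMSO library at 18.3% of the genes tested in actB. The means were 1.19 ± 0.437 (SD, n = 3) and 6.75 ± 3.12 RPKM (SD, n = 3), and the log2 fold change of 2.24 was the rank 4 value from the highest of 11299 genes. This rank, like the one in Pb below, follows from a choice made on these values.

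In Pb the same gene was lower in both arms. It was at 0.545, 1.04 and 0.463 RPKM with DMSO and at 1.48, 2.79 and 1.29 RPKM with GSK343, again without overlap, which in this direction held for 18.8% of genes in Pb. The means were 0.681 ± 0.310 and 1.85 ± 0.818 RPKM (SD, n = 3 each), and the log2 fold change was 1.16, at rank 51. Between libraries with the same number the ratio of GSK343 to DMSO was 4.47, 6.17 and 6.25 in actB. In Pb it was 2.71, 2.69 and 2.78. As *Ifitm1* was chosen on these values, the direction of each pair is a description only. The fitted difference of the log2 fold changes, Pb minus actB, was -1.08 (SE 0.48) and was given no test. All ratios in actB lay above all those in Pb. How many other genes split their ratios in this way was not counted. These levels rest on few reads, from 10 in a Pb library with DMSO to 265 in an actB library with GSK343.

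Without culture *Ifitm1* was at 2.63 and 2.56 RPKM in the nB libraries. In order of mean level the groups ran actB with GSK343, nB, Pb with GSK343, actB with DMSO and Pb with DMSO. Each nB library was above each DMSO library and below each actB library with GSK343, whereas nB overlapped with Pb with GSK343, and actB with DMSO overlapped with both Pb groups. Against nB, limma called 77.2% of all genes in actB with DMSO and 80.6% in Pb with DMSO, so differences from nB were common. How many other genes separate in this way was not counted.

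*Ifitm2* (Entrez 80876), which begins 11.2 kb from *Ifitm1* and is oriented away from it, was the most abundant member in actB. It was at 27.5, 22.9 and 23.3 RPKM with DMSO and at 33.3, 38.7 and 27.9 RPKM with GSK343. All 3 libraries with GSK343 were above the 3 with DMSO, as at 18.3% of the genes tested, though the nearest values, 27.5 and 27.9, were close. The log2 fold change of 0.43 (95% interval -0.07 to 0.92) did not pass the test (limma adjusted p = 0.278), where 10.4% of all genes did.

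In Pb *Ifitm2* was at 4.51, 3.20 and 3.22 RPKM with DMSO and at 3.91, 7.25 and 3.37 RPKM with GSK343. The groups overlapped, and 1 library, replicate 2 with GSK343, was well above the rest. The log2 fold change was 0.33 (95% interval -0.17 to 0.83, limma adjusted p = 0.401), where 12.9% of all genes were called, and it was 0.012 without that library. The ratios between libraries with the same number were 1.21, 1.69 and 1.20 in actB and 0.867, 2.27 and 1.05 in Pb. The difference of the effects between the cell types was -0.10 on the log2 scale and was not called (limma adjusted p = 0.996), where 0.248% of genes were.

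*Ifitm3* (Entrez 66141), on the other side of *Ifitm1*, was at like levels in both arms. In actB it was at 6.52, 19.8 and 5.92 RPKM with DMSO and at 6.10, 18.3 and 5.12 RPKM with GSK343. In Pb it was at 15.6, 47.3 and 18.5 RPKM with DMSO and at 16.9, 36.7 and 15.3 RPKM with GSK343. The arms overlapped in both cell types, and in every group the library with number 2 was the highest. The log2 fold changes were -0.14 in actB (95% interval -1.40 to 1.12, limma adjusted p = 0.926) and -0.17 in Pb (-1.43 to 1.09, adjusted p = 0.896).

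With the replicate number as a block the intervals for *Ifitm3* narrowed to -0.40 to 0.13 in actB and -0.44 to 0.09 in Pb, still with no call (limma adjusted p = 0.446 and 0.315). The ratios of libraries with the same number were 0.936, 0.921 and 0.865 in actB and 1.08, 0.777 and 0.827 in Pb. For *Ifitm2* the block gave intervals of -0.06 to 0.92 in actB and -0.16 to 0.82 in Pb, also with no call (adjusted p = 0.196 and 0.304). Without the libraries with number 2 the log2 fold changes were -0.15 and -0.08 for *Ifitm3* and 0.27 and -0.07 for *Ifitm2* in actB and Pb, again with no call (limma adjusted p of 0.269 to 0.806).

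*Ifitm6* (Entrez 213002) was found in naive cells and was at or near 0 in culture. It was at 12.4 and 18.5 RPKM in the nB libraries, from 155 and 229 reads. It had 0 reads in 11 of 12 cultured libraries and 1 read in the last, replicate 2 of actB with GSK343. No fold with GSK343 can be given, since both arms lie at or under the 3 reads per library that a count of 0 allows. Against that floor the nB mean was at least 66.0-fold higher than actB with DMSO and at least 54.2-fold higher than Pb with DMSO. For the lower of the nB libraries these folds were at least 53.1 and 43.6.

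Many markers of other cells were also higher in nB than in culture. The nB mean was above that of every cultured group for 15 of the 19 myeloid markers in the table, all 12 T and NK cell markers and all 5 erythroid markers. How many of all genes show this was not counted. Of the 11299 genes tested, limma called 4102 lower than nB in actB with DMSO and 4646 in Pb with DMSO. The 4 myeloid exceptions, named after their values were seen, were *Ly6c2*, *Itgam*, *Lcn2* and *Camp*. The summed level of the 19 myeloid markers was 272 to 332 RPKM in nB, 17.6 to 21.4 in actB with DMSO and 23.5 to 27.8 in actB with GSK343. In Pb the sum was 120 to 359 RPKM with DMSO and 110 to 246 with GSK343, most of it from *Ly6c2*, whose mean was 192 and 153 RPKM there and 23.7 RPKM in nB. *Lyz2*, the lysozyme of macrophages and neutrophils, had a mean of 166 RPKM in nB and 0.422 in actB with DMSO, and the neutrophil calprotectin genes *S100a8* and *S100a9* had 12.3 and 9.90 RPKM in nB and 0 in every cultured group. T and NK cell markers summed to 46.1 to 50.7 RPKM in nB and 5.42 to 9.68 in cultured libraries, and erythroid markers to 30.9 to 147 and 1.43 to 19.0 RPKM. No marker of these lists was at 0 in nB, while a cultured library had up to 7 of the 19 myeloid, 5 of the 12 T and NK cell and 2 of the 5 erythroid markers at 0. Their part in the level of *Ifitm6*, or of the other members in nB, was not tested, and in these bulk samples fewer cells of a type and less RNA per cell cannot be told apart.

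**Figure D2:**
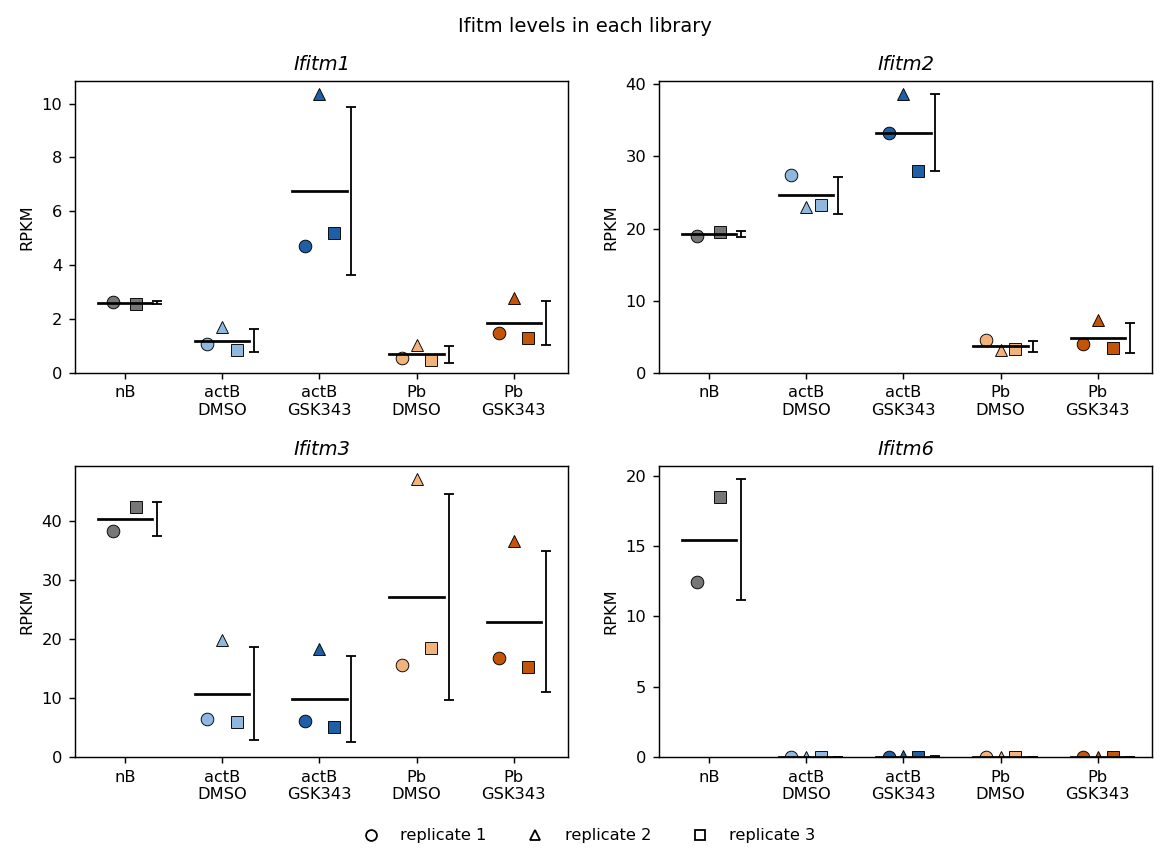
RPKM of the 4 *Ifitm* genes in each library of the 5 groups, with replicate numbers as symbols (in nB the circle is the average of the first 2 libraries), group means as lines and the SD as bars beside them, cut at 0. *Ifitm1*, which was chosen on these values, has no overlap between DMSO and GSK343 in either cell type. *Ifitm3* overlaps in both, and *Ifitm6* is at 12.4 and 18.5 RPKM in nB and near 0 in culture.

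Without the drug the members followed different courses from naive cells to plasmablasts. *Ifitm2* was at 19.0 and 19.6 RPKM in nB, near that of actB, where the log2 difference of 0.34 was not called (limma adjusted p = 0.234, with 77.2% of all genes called), and it fell in Pb. The log2 fold change of Pb against actB was -2.69 (SE 0.23, limma adjusted p = 3.95e-07) and that of Pb against nB was -2.34 (SE 0.25, adjusted p = 2.11e-06). Of all genes, 69.7% and 80.6% were called in these comparisons, so that a call is not unusual in them. No Pb library with DMSO reached the level of any nB or actB library.

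*Ifitm3* ran the other way between the cultured populations. It was at 38.4 and 42.5 RPKM in nB and fell in actB with DMSO by 2.11 on the log2 scale (SE 0.65, limma adjusted p = 0.00987), a call that was lost without nB replicate 3 (-2.04, adjusted p = 0.0588). Pb had 2.57-fold more than actB, a log2 difference of 1.36 that missed the threshold without the block (SE 0.58, limma adjusted p = 0.0523) and passed it with the block (adjusted p = 4.30e-06). Each Pb library was above the actB library with its own number, and how many other genes show this was not counted. In this comparison limma without the block called 69.7% of all genes, higher or lower. Pb and nB overlapped and were not told apart, with a log2 difference of -0.75 (limma adjusted p = 0.301), although without the libraries with number 2 it was -1.23 (adjusted p = 2.71e-06). Over all genes tested, the median log2 difference of Pb against actB was -0.12, so these values are to be read against that shift.

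The make-up of the family's transcripts changed accordingly. Of the summed RPKM of the 4 genes, *Ifitm3* held 51.1 to 53.0% in nB libraries, 18.6 to 44.6% in actB with DMSO and 75.6 to 91.8% in Pb with DMSO. *Ifitm2* held 23.6 to 26.2% in nB, 51.6 to 78.4% in actB with DMSO and 6.21 to 21.8% in Pb with DMSO. *Ifitm1* was the smallest share of the expressed members in each DMSO library, at 2.77 to 3.77% in actB and 2.01 to 2.63% in Pb. With GSK343 its share was 10.7 to 15.4% in actB and 5.97 to 6.62% in Pb, and no DMSO library reached these values. The share restates the levels on which *Ifitm1* was chosen, so this separation is a description only.

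**Figure D3:**
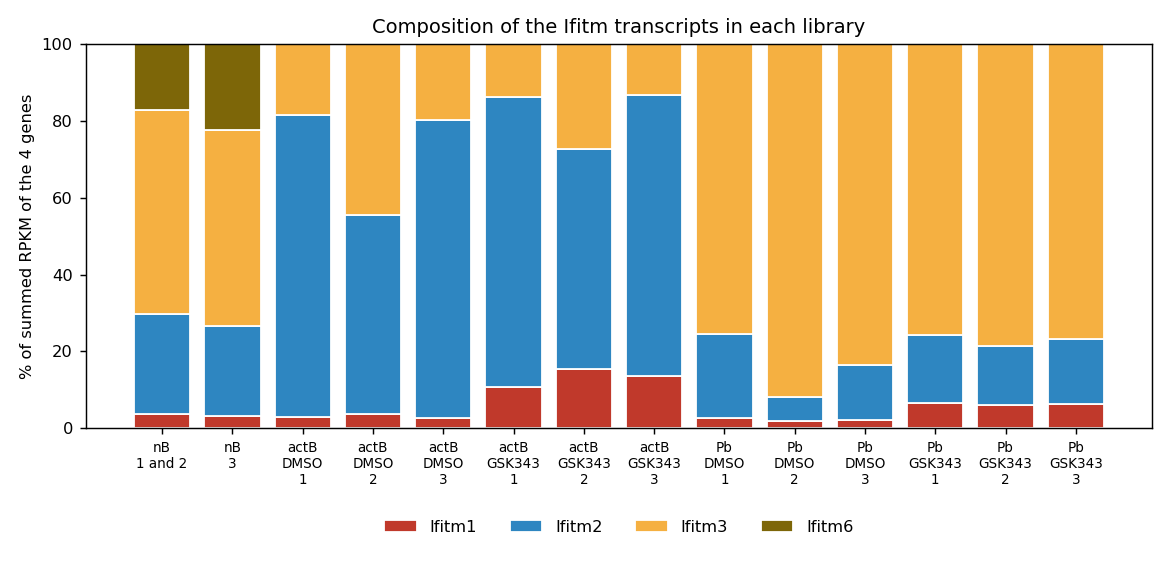
Share of each of the 4 *Ifitm* genes in their summed RPKM, as a percentage in each of 14 libraries. *Ifitm2* (blue) is the largest share in actB and *Ifitm3* (orange) in Pb. *Ifitm1* (red), which was chosen on its levels, takes 10.7 to 15.4% in actB with GSK343 against 2.77 to 3.77% with DMSO.

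The search for a shared change was carried on to the other genes of the region. Within 100 kb of the members 13 other genes are annotated, of which 10 are in the table and 6 passed the filter. They are *Ric8*, a chaperone of G protein alpha subunits, *Sirt3*, a mitochondrial deacetylase, *Psmd13*, a subunit of the proteasome, *Athl1*, *Pkp3*, a desmosomal plakophilin, and *Sigirr*, an inhibitor of interleukin-1 and Toll-like receptor signalling. Of these 6 genes 0 were called with GSK343 in either cell type by limma, where the calls took up 10.4% of all genes (actB) and 12.9% (Pb). With the replicate block there were also 0, where 14.7% of all genes rose and 6.24% fell in actB and 13.6% rose and 10.7% fell in Pb. At these shares a count of 0 among 6 genes does not set them apart from other genes. Their folds were 1.02 to 1.15 in actB, with a lowest adjusted p of 0.283, and 0.870 to 1.13 in Pb, with a lowest adjusted p of 0.320.

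The nearest tested gene beyond *Ifitm2* was *Athl1*, whose start lies 25.8 kb from that of *Ifitm1*. It had 2.84 ± 0.154 RPKM with DMSO and 3.30 ± 0.169 with GSK343 in actB (SD, n = 3 each), a log2 fold change of 0.20 (95% interval -0.03 to 0.43). *Ifitm5*, known from bone-forming cells, lies between *Athl1* and *Ifitm2* and was below the filter, with 0 to 8 reads in any library. *Cox8b*, *Nlrp6* and *B4galnt4* were also below the filter. The other family genes of the table, *Ifitm7* on chromosome 16 and *Ifitm10*, had at most 11 reads in any library, so a change in them was not detectable at this depth.

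**Figure D4:**
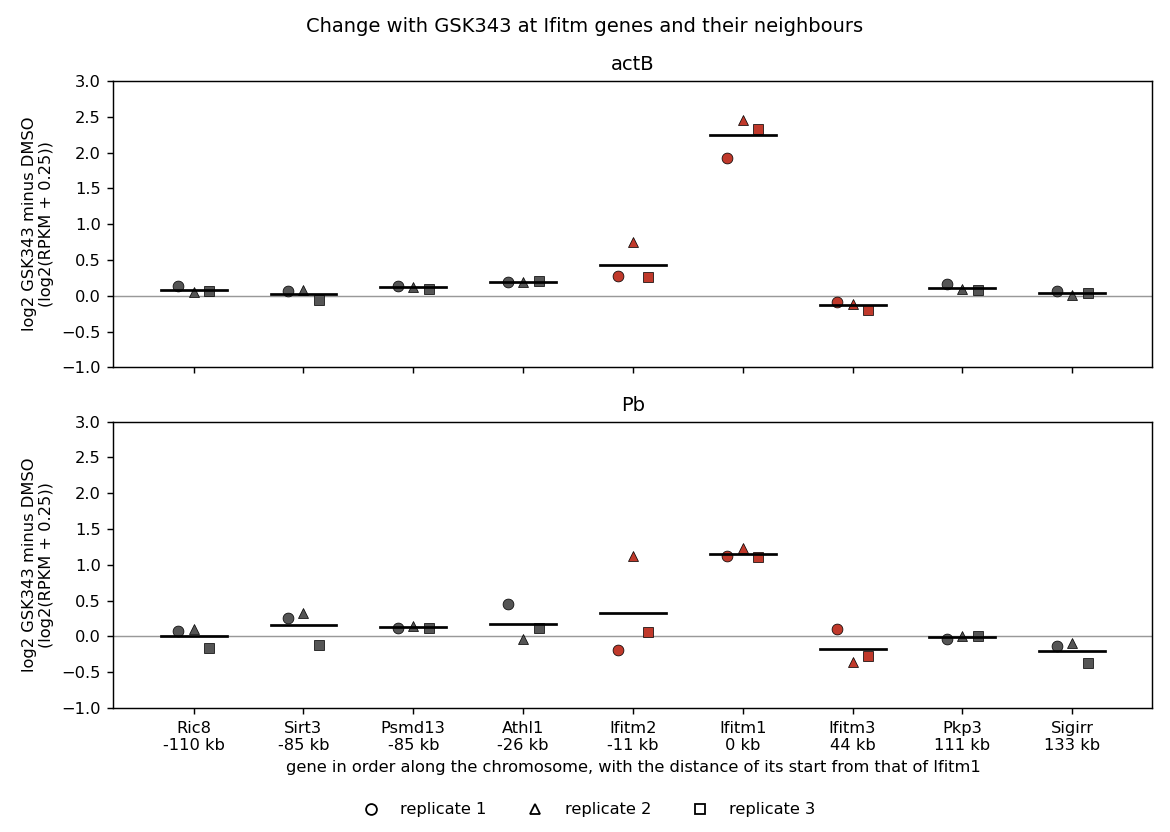
Log2 difference between GSK343 and DMSO libraries with the same replicate number for the tested genes of the region, in their order along the chromosome, with the distance of each start from that of *Ifitm1* in kb, for actB (top) and Pb (bottom). Lines are means. The pairs of *Ifitm1*, which was chosen on these values, all lie above those of every other gene in actB. In Pb 1 pair of *Ifitm2* reaches the level of *Ifitm1*.

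Since *Ifitm* genes are known as targets of interferon, the other genes of that pathway were read in order of their roles. Of 12 interferon ligands 10 are in the table and only *Ifng*, interferon gamma, passed the filter. It did so through nB alone, with 28 and 33 reads there. In actB it had 1 to 2 reads per library with DMSO and 3 to 9 with GSK343. In Pb it had 4 to 6 and 7 to 9 reads. The RPKM of the arms did not overlap in either cell type, with GSK343 higher. A separation in this direction held for 18.3% of the genes tested in actB and 18.8% in Pb. The log2 fold changes of *Ifng*, 0.46 and 0.38, were not called by limma. With so few reads these values do not decide whether *Ifng* changed with GSK343. Every group had a library in which 8 or 9 of the 10 ligands were at 0. Of 8 receptor subunits and kinases tested, 2 rose in actB, *Jak2* by 0.35 and *Jak1* by 0.16 on the log2 scale, where 8.2% of all genes rose. In Pb the kinases *Tyk2* (0.21) and *Jak1* (0.18) rose, where 7.9% of all genes rose. The receptor subunits *Ifngr2* (-0.36), *Ifnar1* (-0.31) and *Il10rb* (-0.25) fell in Pb, where 5% of all genes fell. Of the 8 interferon transcription factors tested, limma called 0 in either cell type and, with the replicate block, 2 lower in actB and 3 lower in Pb, where 6.24% and 10.7% of all genes fell. Of 7 feedback inhibitors, *Socs3*, which blocks cytokine receptor kinases, rose in actB by 0.66 (limma adjusted p = 0.0294), where 8.2% of all genes rose. In Pb 0 of the 7 were called, where 12.9% of all genes were. With the block 2 of these 7 rose and 2 fell in actB, where 14.7% of all genes rose and 6.24% fell, and 1 rose and 3 fell in Pb, where 13.6% rose and 10.7% fell.

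Few of the 50 other interferon-stimulated effectors were called. In actB, where 8.2% of all genes rose and 2.16% fell, 0 of the 50 rose and 1 fell. That gene was *Oasl1*, a relative of the oligoadenylate synthetases, which fell by 0.55 on the log2 scale (17.4 ± 0.941 RPKM with DMSO and 11.8 ± 0.960 with GSK343, SD, n = 3 each, limma adjusted p = 0.00216). In Pb, where 7.9% of all genes rose and 5% fell, 2 of the 50 rose and 1 fell. *Ifit1*, which binds viral RNA, rose by 0.75 (0.997 ± 0.204 and 1.84 ± 0.171 RPKM, limma adjusted p = 0.0105), *Ly6e*, a membrane-anchored protein that hinders virus entry, rose by 0.23 (adjusted p = 0.0199), and *Oasl1* fell by 0.55 (adjusted p = 0.00181). The log2 fold changes of the 50 ran from -0.96 to 0.27 in actB and from -1.15 to 0.75 in Pb, all below those of *Ifitm1*. Because *Ifitm1* was chosen on these same values, its place above the 50 is a description only.

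Their medians were -0.22 in actB and -0.16 in Pb, against 0.03 and 0.003 over all genes tested, and 41 and 38 of the 50 values were below 0. With the replicate block 22 fell and 0 rose in actB, and 20 fell and 3 rose in Pb, where 6.24% and 10.7% of all genes fell and 14.7% and 13.6% rose. Without the libraries with number 2, 16 fell and 1 rose in actB, and 18 fell and 4 rose in Pb, against 4.97% and 7.52% of all genes that fell and 10.4% and 9.97% that rose. The log2 fold change of *Ifitm3*, -0.14 and -0.17, was near these medians and that of *Ifitm2* above them, within the range of the list in Pb and above it in actB.

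**Figure D5:**
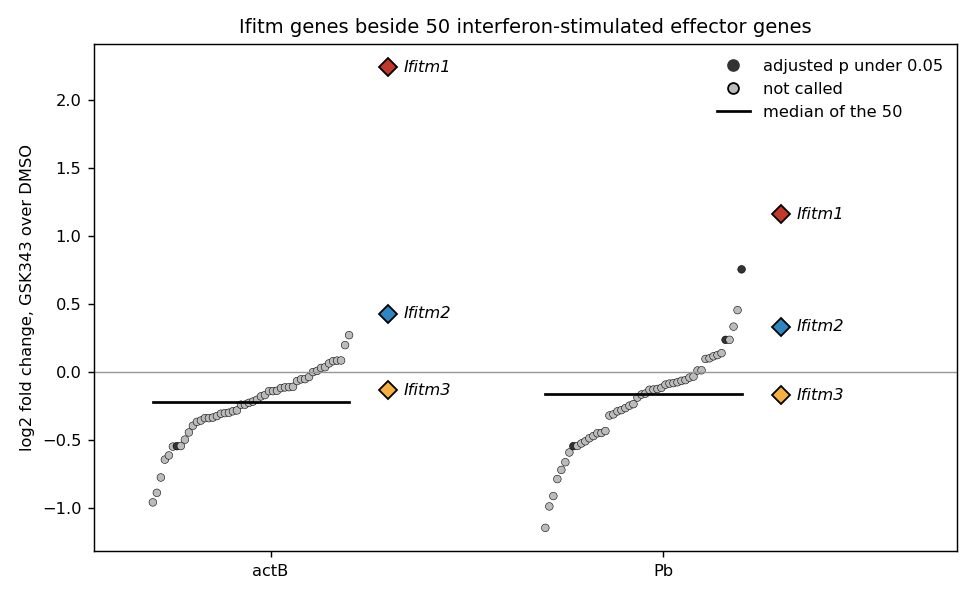
Log2 fold change with GSK343 of 50 interferon-stimulated effector genes (circles in order of size, dark where called, line at the median) beside *Ifitm1*, *Ifitm2* and *Ifitm3* (diamonds) in actB and Pb. *Ifitm1*, which was chosen on these values, lies above all 50 in both cell types, at 2.24 and 1.16. *Ifitm3* lies near their medians of -0.22 and -0.16.

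Marker genes were read for the make-up of the sorted cells. *Sdc1*, the gene of CD138, had a mean of 0.665 RPKM in actB and 29.7 RPKM in Pb with DMSO, and the summed B cell markers were 1817 to 2101 RPKM in actB and 915 to 946 RPKM in Pb, in the direction of the sort. With GSK343 the summed B cell markers were 1738 to 1943 RPKM in actB and 750 to 888 in Pb. The 7 plasmablast markers summed to 827 to 903 RPKM with DMSO and 844 to 954 with GSK343 in actB. In Pb they summed to 3026 to 3264 and 3127 to 3460 RPKM. The genes named next are the largest called changes of their lists and do not stand for the whole lists. In actB 8.2% of all genes rose and 2.16% fell, and in Pb 7.9% rose and 5% fell. With GSK343 *Sdc1* rose in actB by 0.41 and in Pb by 0.89 on the log2 scale. *Slamf7* fell in actB by 0.43, and *Irf4*, a regulator of plasma cell differentiation, fell in Pb by 0.25. The B cell genes *Fcer2a*, the low-affinity IgE receptor, fell by 0.91 in actB and 1.56 in Pb, and *Pax5* and *Ms4a1* fell in Pb by 1.11 and 0.63. *Itgam*, an integrin of myeloid cells, rose in actB by 1.14 (4.27 ± 0.664 to 9.95 ± 3.12 RPKM, SD, n = 3 each, limma adjusted p = 0.00376), while *Lyz2* was at 0.422 and 0.772 RPKM there and *S100a8* and *S100a9* at 0. Other markers of myeloid, T and NK cells could hardly be compared between the arms, since 5 of the 13 myeloid and 3 of the 11 T and NK cell genes tested reached 1 RPKM in any cultured library and the others passed the filter through nB. *Pecam1*, an adhesion molecule listed as an endothelial marker, fell in Pb by 0.52. Its mean was 111 RPKM in nB, 41.2 in actB with DMSO, and 10.2 and 7.01 in Pb with DMSO and GSK343. The endothelial genes *Cdh5*, *Kdr* and *Tek* had means of 0.945, 0.195 and 0.0227 RPKM in nB. In Pb with DMSO their means were 0.266, 0.0463 and 0.0210 RPKM. *Kdr* was higher in actB with DMSO, with a mean of 0.718 RPKM and a highest library of 1.87. Whether the level of *Pecam1* came from endothelial cells was not tested. The part of these shifts in the level of *Ifitm1* was not tested.

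Genes with the pattern most like each member were found by Pearson's r of log2(RPKM + 0.25) over the 14 libraries, which share their groups and their sequencing depth, and r is given as a description. For *Ifitm1* they were *Lrrc8c* (r = 0.955), a subunit of volume-regulated anion channels, *Zfp523* (0.933), a zinc finger protein, and *Sema4a* (0.933), a semaphorin. *Sema4a* was at 2.82 RPKM in nB, 1.19 and 4.07 in actB with DMSO and GSK343, and 0.599 and 1.29 in Pb, the same order of groups as for *Ifitm1*. For *Ifitm2* they were *Pde6d* (0.986), which carries prenylated proteins, *Hspb11* (0.981), a part of intraflagellar transport, and *Itpr1* (0.981), an inositol trisphosphate receptor. *Itpr1* was at 24.4 RPKM in nB, 29.3 and 33.9 in actB and 5.44 and 8.05 in Pb. For *Ifitm3* they were *Themis2* (0.959), a B cell signalling adaptor, *Gbe1* (0.955), the glycogen branching enzyme, and *Gm5431* (0.946). For *Ifitm6*, *Apol7c*, *Anxa3* and *Mefv* each had r of 0.999 or more, with means of 27.1, 2.70 and 2.40 RPKM in nB and close to 0 in all cultured groups, so these values rest on the 2 nB libraries.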

How the data were processed

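RNA-seq of 15 libraries was analysed. The authors mapped 50 bp paired-end reads of poly(A) RNA from a stranded kit to mm9 with TopHat2, counted reads over the exons of Entrez genes with GenomicRanges, and deposited RPM (reads per 1000000 counted reads), although the table is named for RPKM. Strand use in counting and the treatment of reads with several matches are not given in the sources used here. The deposited RPM values are 100% whole multiples of 1 read within 0.05 read, so reads were recovered. RPKM was computed as RPM over the deposited gene length in kb. Genes with no symbol (92) were left out.

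Libraries with 19421830 to 26307413 reads give a floor of 3 reads per library where a gene is at 0, which covers counting error only. The first and second nB libraries (chi-square per degree of freedom 0.00958 over genes, against at least 3.58 for other pairs) were averaged. The libraries of a group are described as biological replicates.

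The 11299 genes that reached 1 RPKM in 3 or more of the 15 deposited columns were kept, with the first and second nB columns counted apart. Their log2(RPKM + 0.25) in the 14 libraries was modelled in limma 3.58.1 (R 4.3.3) with group means and a trended variance prior. P-values are two-sided with Benjamini-Hochberg adjustment, called at 0.05. The replicate numbers come from the sample titles and were used as pairs. Deviations from group means correlated within each number (r of 0.158 to 0.502, 0.435 to 0.713 and 0.219 to 0.356 over 6 pairs each) and at -0.603 to 0.370 between numbers. These ranges overlap, and deviations from a group mean sum to 0, which lowers r between numbers, so these values do not establish the pairing. The alternative with this block used the 12 cultured libraries. The model was also run with a pseudocount of 1 or 0.05, without a filter, with at least 3 RPM, with median scaling or quantile normalization, on the compared groups alone, on all 15 columns and with each library left out, and edgeR 4.0.16 was run on the recovered reads (11146 genes, TMM or RLE factors). Leaving out number 2 was added after seeing the data. The scripts were tested on simulated data.

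The members and gene lists were chosen with earlier results of these data known. Genes named are the members, other *Ifitm* genes, genes within 100 kb, the 2 largest rises and falls called in each list, and the 3 genes most like each member. Coordinates are in mm9 (GENCODE vM1), and promoter windows are from RefSeq, matched for 4 of 4 members.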

Additional observations from a re-analysis of the deposited data

How the results depend on the processing

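With GSK343 *Ifitm1*, which was chosen on these values, ran from 1.77 to 2.47 on the log2 scale in actB over the alternative runs. In Pb it ran from 0.74 to 1.42. These ranges show how its value depends on the processing and are no support for its rise. Its only moved value was -1.11 for Pb against nB with a pseudocount of 1. The replicate block gave 2368 genes called in actB, 2740 in Pb and 83 for the difference of the effects, against 1170, 1458 and 28 without it, and turned the call of *Ifitm3* in Pb against actB (1.36, limma adjusted p = 4.30e-06). It changed no other call of a member. That comparison of *Ifitm3* also passed with at least 3 RPM (1.36), median scaling (1.47), quantile normalization (1.42), edgeR with TMM (1.40) or RLE (1.45) factors, all 15 columns (1.36) and number 2 left out (1.42), with adjusted p of 2.28e-06 to 0.216 over all settings and single libraries left out.

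With the compared groups alone 386 genes were called in actB and 4 for the difference, and *Ifitm2* passed in actB against nB (0.34). Quantile normalization gave 18 genes for the difference and 0.036 for *Ifitm3* in it, and all 15 columns gave 48. Without number 2 the difference had 146 genes, *Ifitm2* was at -0.067 with GSK343 in Pb and passed in actB against nB (0.39), and *Ifitm3* was at 0.066 for the difference and passed in Pb against nB (-1.23).

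With single libraries left out, 608 to 1363 genes were called in actB, 690 to 1304 in Pb and 0 to 58 for the difference. *Ifitm2* ran from -0.41 to 0.11 for the difference. *Ifitm3* ran from -0.69 to 0.41 with GSK343 in actB, -0.57 to 0.31 in Pb, -0.58 to 0.52 for the difference, 0.87 to 1.91 in Pb against actB, passing without actB DMSO replicate 2 (adjusted p = 0.00971) or Pb DMSO replicate 1 (0.0400), and -2.65 to -1.80 in actB against nB. The share of calls that were higher in actB with GSK343 was 79.1%, 65.1% with median scaling and 61.6% with quantile normalization, and in Pb against actB it was 39.2% and 49.4% with median scaling. The causes were not tested. *Ifitm1* had as few as 10 reads in a Pb library, and the error of *Ifitm3* (SE 0.58) was above that of *Ifitm1* (SE 0.34) at more reads.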
